A study of Mus musculus with 16 samples.

Results

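Aquaporins and urea transporters form a small group of membrane proteins that let water, glycerol or urea through a cell's membrane, and 8 of their genes are described here in the mouse bladder: Aqp1, Aqp3, Aqp4, Aqp5, Aqp9, Aqp11, Slc14a1 and Slc14a2. The members were the genes with these symbols, matched through the transcript named for each probe, with 12 probes among the 55681 on the array and 8 gene names among 37208. RNA of the bladder body of C57BL/6 mice was hybridized to 1-colour Agilent arrays, 1 mouse per array, and both sexes were sampled at an age of 12 months (MAT) and of 27 to 30 months (AGED), with 4 mice in each of the 4 groups. The labels name no allele or agent for any group. Directions here are those of the labels of the arrays, and for S100a9, a gene described below, the study gives the opposite direction. Which is right cannot be told from the files. AGED mice were compared with MAT mice within each sex, which asks how the expression of these channels differed between old and mature bladders.

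All female arrays lay on 1 slide and all male arrays on the other, and row 1 of each slide held MAT mice and row 2 AGED mice, so sex cannot be told apart from slide, nor age from row. The share of probes well above background, a flag of the scanner software, ran from 52.3% to 61.2% on AGED male arrays and from 59.9% to 68.2% on the other 12. AGED male replicate 1 was the dimmest array, with a 75th percentile of the log2 signal of 9.39, where the other 3 of its group lay between 10.13 and 10.24. The software also multiplied each spot by a factor that depended on its place on the array (spatial detrending). This factor exceeded 1.5 for 9.20% to 16.8% of the spots well above background on AGED male arrays, for 0% to 7.90% on MAT male arrays and for at most 0.00771% on female arrays. Levels below are log2 signals relative to the 75th percentile of the array, so 0 is the level that 75% of its spots did not exceed, and levels of different probes are not comparable with each other. In whole tissue, fewer cells of a type and less RNA per cell cannot be told apart.

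Aqp1, Aqp4 and Aqp5 are channels for water, Aqp3 and Aqp9 also pass glycerol and, with it, small solutes such as urea, and Aqp11 is a distant relative found mostly on membranes inside the cell. Slc14a1 encodes UT-B, the urea transporter of red cells, vessels and urothelium, and Slc14a2 encodes UT-A, best known from the kidney's collecting duct, where urea transport helps to concentrate urine. The bladder stores urine of high osmolality behind the urothelium, an epithelium of very low permeability, and its cells nevertheless make some of these channels. AQP3 is known from the membranes of urothelial cells below the surface layer, and AQP1 from the endothelium of blood vessels and from red cells.

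The regions around the start sites of Aqp1, Aqp3 and Aqp5 are shown as those of the members with a role in the cell's outer membrane that are channels for water and were measured on all arrays. Each run of 300 bases spans the start, most of it lying upstream, 5′ to 3′ on the gene's strand, from RefSeq (GRCm38.p6). Capitals mark 2 searched motifs, the GC box GGGCGG and the TATA box TATAAA, on either strand, and no marked stretch overlapped another.
Aqp1 (chr6:55336049-55336348, + strand): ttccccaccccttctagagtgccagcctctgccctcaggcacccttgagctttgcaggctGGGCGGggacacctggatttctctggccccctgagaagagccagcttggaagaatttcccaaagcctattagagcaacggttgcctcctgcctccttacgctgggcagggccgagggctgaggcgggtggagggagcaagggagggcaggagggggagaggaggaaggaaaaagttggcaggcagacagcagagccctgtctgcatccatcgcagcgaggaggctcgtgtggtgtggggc
Aqp3 (chr4:41098134-41098433, - strand): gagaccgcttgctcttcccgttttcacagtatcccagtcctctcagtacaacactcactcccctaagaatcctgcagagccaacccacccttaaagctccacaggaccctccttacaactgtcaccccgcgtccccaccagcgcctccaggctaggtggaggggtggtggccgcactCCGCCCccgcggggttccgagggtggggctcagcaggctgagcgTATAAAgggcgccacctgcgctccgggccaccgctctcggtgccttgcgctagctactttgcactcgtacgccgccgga
Aqp5 (chr15:99590778-99591077, + strand): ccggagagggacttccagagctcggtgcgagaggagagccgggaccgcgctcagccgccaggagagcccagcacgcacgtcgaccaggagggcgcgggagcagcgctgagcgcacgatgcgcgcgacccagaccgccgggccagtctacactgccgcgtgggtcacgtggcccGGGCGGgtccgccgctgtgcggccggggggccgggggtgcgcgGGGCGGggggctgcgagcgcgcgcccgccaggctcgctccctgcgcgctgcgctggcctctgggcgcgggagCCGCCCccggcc
The window of Aqp1 held 1 GC box, that of Aqp3 1 GC box and 1 TATA box, and that of Aqp5 3 GC boxes, while that of Aqp11, not shown, held none of the motifs searched. A GC box was found in 35.7% and a TATA box in 13.6% of all 32851 start regions of this length. The core TGGAAA of the element bound by Nfat5, the transcription factor of the response to high osmolality, was in 21.4% of all regions and in none of these 3 windows. A window of Aqp9, also not shown, held 1 such core. The GC content of the 3 windows shown was 62.7%, 64.0% and 79.7%. These matches describe the letters in the windows and were not tested as sites.

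Most members were measured on every array. The probes of Aqp1, Aqp3 and Slc14a1, both probes of Aqp11 and 1 of the 2 probes of Aqp5 were well above background on 16 of 16 arrays. The brighter probe of Aqp4 reached this on 14 arrays and that of Slc14a2 on 13. Aqp9 was well above background on 1 of 16 arrays, MAT female replicate 2, and the dimmer probe of Slc14a2 on 0. Probes that reached this on fewer than 4 arrays were left out, and 10 of the 12 probes and 7 of the 8 genes, all but Aqp9, remained. These 7 were tested among 26781 genes, each by the brightest of its remaining probes.

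**Figure D1:**
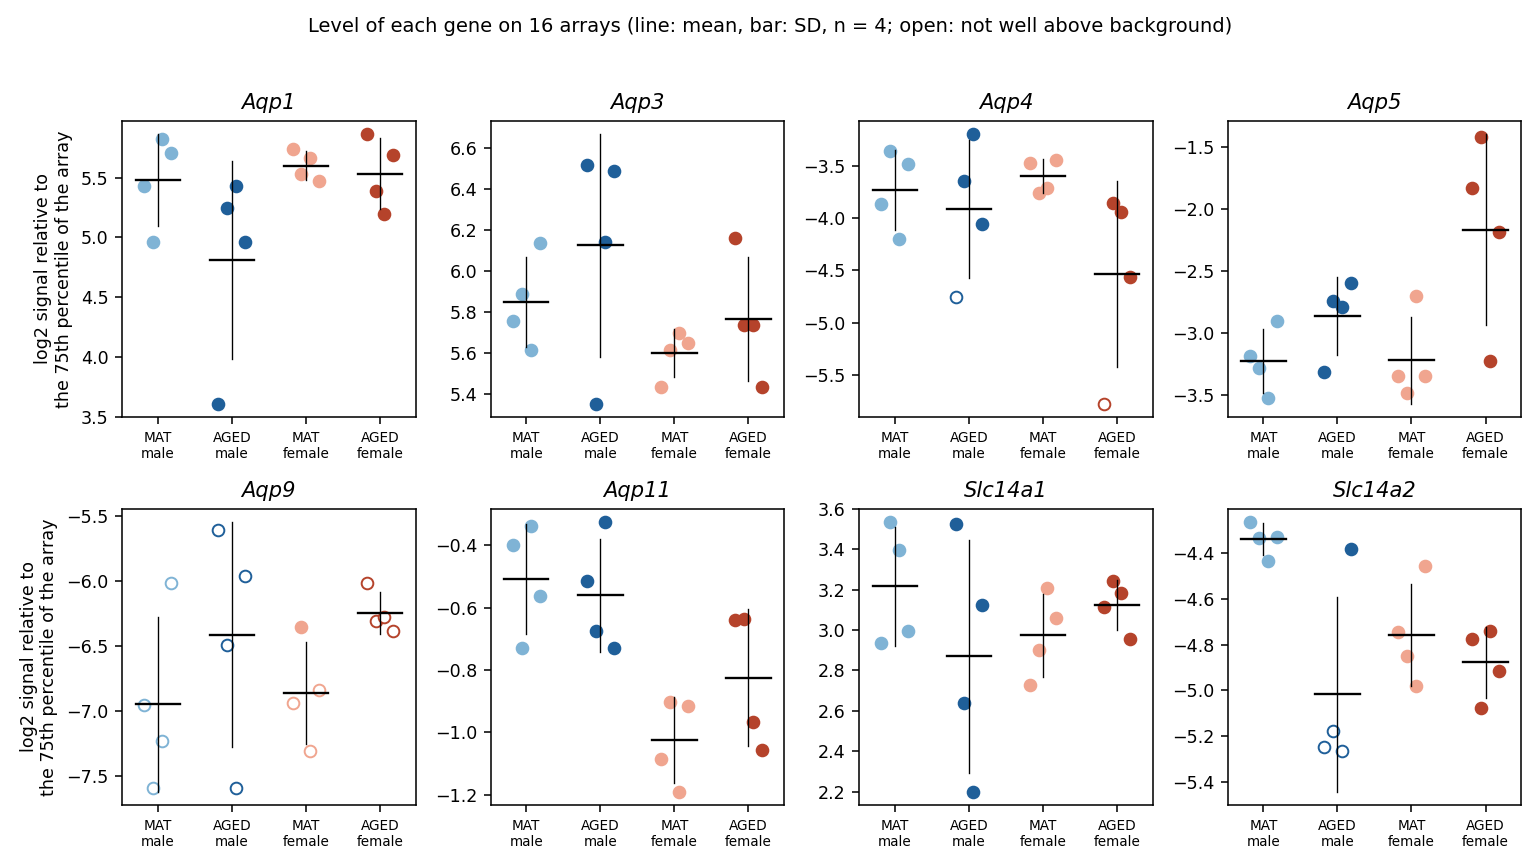
Each panel shows 1 gene on the 16 arrays, with the log2 signal relative to the 75th percentile of the array on its own vertical axis and the 4 groups along the horizontal axis, replicates 1 to 4 from left to right within a group. Filled points were well above background and open points were not, lines are means and bars are SDs of 4 arrays. Slc14a2 was not well above background on 3 of the 4 AGED male arrays, and Aqp9 was well above it on 1 array of 16.

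No aquaporin or urea transporter differed between AGED and MAT mice at the threshold used, a Benjamini-Hochberg adjusted p of limma under 0.05 over all genes with at least a 2-fold change. In males 0 of the 7 tested members passed, where 0.848% of all genes did. In females 0 of 7 passed, where 0.187% of all genes did. No member passed for the difference of the age changes between the sexes either, where 0.149% of genes did at an adjusted p under 0.05 with no fold limit. The comparison counts rest on single arrays: with 1 array left out in turn, the count of genes called ran from 122 to 378 in males, where all arrays gave 227. In females it ran from 1, without AGED female replicate 2 or 4 or MAT female replicate 1 or 4, to 127, without AGED male replicate 1, where all arrays gave 50. For the difference it ran from 6 to 278, where all arrays gave 40. At an unadjusted p of limma under 0.05, 1 of 7 members passed in males (Slc14a2, lower), against 16.3% of all genes in either direction and 8.49% lower. In females 2 of 7 passed (Aqp4, lower, and Aqp5, higher), against 10.6% of all genes, with 5.88% lower and 4.68% higher, and for the difference 1 of 7 passed (Slc14a2), against 9.9%. By the methods' t-test, with no adjustment and the same fold limit, 0 members passed (1.85% of all genes) and 1 in females, Aqp5 (1.47%). The median change of the 7 members was -0.19 in males and 0.15 in females, against 0.00 in both sexes over all genes.

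**Figure D2:**
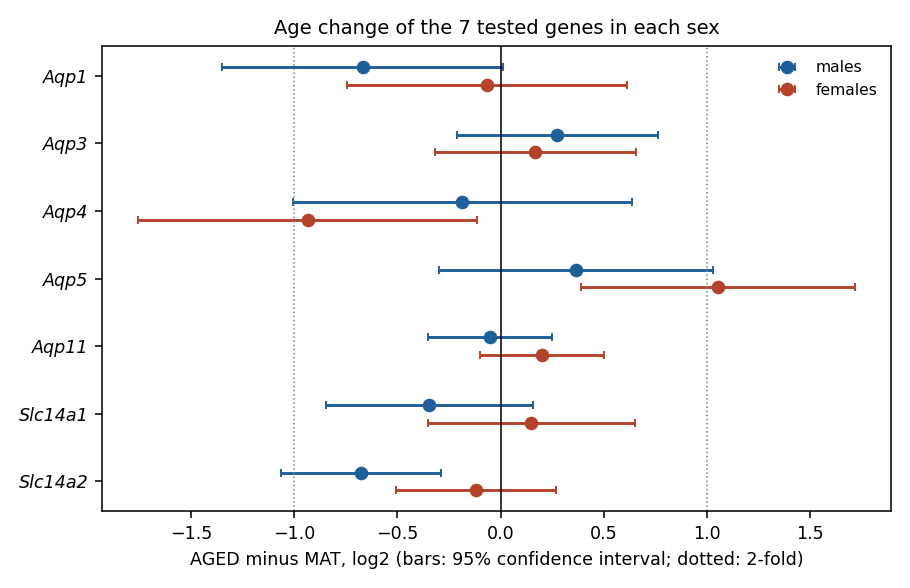
Points are the differences between AGED and MAT means (log2, limma) of the 7 tested genes in males (blue) and females (red), bars are 95% confidence intervals, and dotted lines mark a 2-fold difference. Intervals that left out 0 were those of Slc14a2 in males and of Aqp4 and Aqp5 in females.

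Aqp1, the water channel of blood vessels and red cells, read 5.43, 4.96, 5.83 and 5.71 on the 4 MAT male arrays and 3.61, 5.25, 5.43 and 4.96 on the 4 AGED male arrays. The groups overlapped, and the low value of 3.61 was that of AGED male replicate 1, the dimmest array. The fitted change in males was -0.67 (SE 0.32, 95% interval -1.35 to 0.01, limma adjusted p = 0.315). Without AGED male replicate 1 it was -0.27 (adjusted p = 0.548). In females Aqp1 read 5.74, 5.53, 5.67 and 5.47 in MAT and 5.86, 5.39, 5.20 and 5.68 in AGED mice. The female change was -0.07 (95% interval -0.75 to 0.61, limma adjusted p = 0.972), and the difference between the sexes was -0.60 (95% interval -1.56 to 0.36, limma adjusted p = 0.719). Of 9 endothelial marker genes, all measured, 0 passed in either sex, and their mean level ran from 0.51 to 1.02 on AGED male arrays and from 0.85 to 1.11 on MAT male arrays. Their part in the values of Aqp1 was not tested.

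Aqp3, the glycerol and water channel of the urothelium, was high on all 16 arrays. It read 5.76, 5.89, 5.62 and 6.14 in MAT males and 6.52, 5.35, 6.14 and 6.49 in AGED males. AGED male values lay on both sides of all MAT male values. The change in males was 0.28 (SE 0.23, 95% interval -0.21 to 0.76, limma adjusted p = 0.571). Without AGED male replicate 2 it was 0.53 (adjusted p = 0.127), and without AGED male replicate 1 or 4 it was 0.14 or 0.15 (adjusted p = 0.80 and 0.766). In females Aqp3 read 5.43, 5.62, 5.70 and 5.65 in MAT and 6.16, 5.74, 5.74 and 5.43 in AGED mice. The change in females was 0.17 (95% interval -0.32 to 0.65, limma adjusted p = 0.865), and on this scale a change above 2-fold in either direction lay outside the interval in both sexes. The change of the sexes differed by 0.11 (95% interval -0.58 to 0.80, limma adjusted p = 0.947).

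The direction of Aqp3 in males depended on the spatial detrending. Its spot lay in row 374 of 384, near an edge of the array. There the factor was 1.80, 2.06, 1.98 and 2.45 on the 4 AGED male arrays, and between 0.808 and 1.08 on the other 12. The median factor of the 159 spots within 10 rows and columns that were well above background on all arrays was 1.78 to 2.46 on AGED male arrays and 0.809 to 1.08 on the others. The neighbouring spots were raised about as much as that of Aqp3. Without the detrending, Aqp3 read 5.94, 6.16, 5.78 and 6.06 in MAT males and 5.74, 4.36, 5.21 and 5.25 in AGED males, and all 4 AGED values were below all MAT values, as were those of 4.35% of all genes on this scale. The change was then -0.84 (limma adjusted p = 0.0506), and with normexp background correction of the raw median signals, which also leaves the detrending out, -0.85 (limma adjusted p = 0.0407). These scales moved the median of all genes in males by 0.15 and 0.12. Set against its neighbouring spots, with no detrending, Aqp3 was 5.29 ± 0.22 (SD, n = 4) in MAT males and 5.62 ± 0.52 in AGED males, a difference of 0.32 (exact permutation p = 0.286). The female change was 0.16 without detrending and 0.05 against the neighbouring spots. The scaling without detrending and the one against neighbouring spots were chosen after seeing the data.

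**Figure D3:**
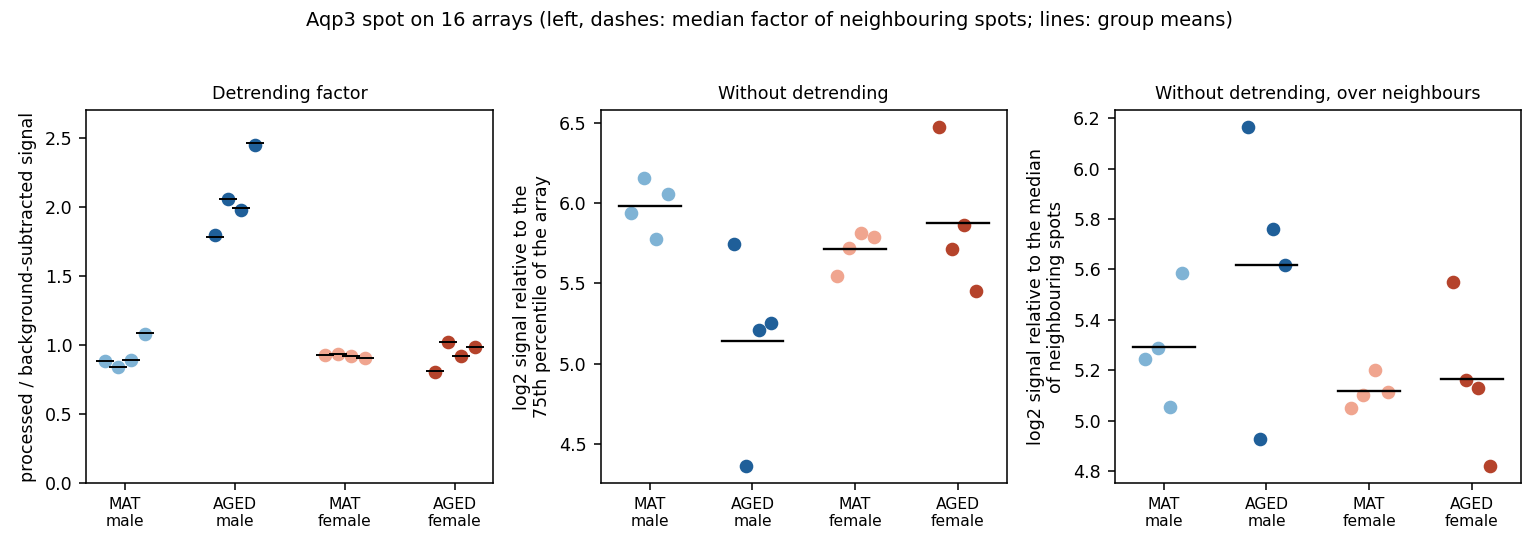
The Aqp3 spot on the 16 arrays by group: the ratio of processed to background-subtracted signal with dashes for the median of its neighbours (left), and the log2 signal with no detrending relative to the 75th percentile of the array (middle) or to the median of the neighbouring spots (right), with lines for group means. Factors of 1.80 to 2.45 occurred on the 4 AGED male arrays, and AGED males lay below MAT males in the middle panel but on both sides of them in the right panel.

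Aqp5, a water channel best known from glands and the lung, had the largest rise in females among the 7 genes. Its brighter probe read -3.35, -3.48, -2.70 and -3.35 in MAT females and -1.83, -1.42, -3.22 and -2.19 in AGED females. Of the AGED values 3 of 4 were above all MAT values, and AGED female replicate 3 lay among the MAT values. The change was 1.05, or 2.08-fold (SE 0.31, 95% interval 0.39 to 1.72, unadjusted p = 0.00417, limma adjusted p = 0.243). Without AGED female replicate 3 it was 1.41 and passed the threshold (limma adjusted p = 0.043), and over all 16 omissions of 1 array the adjusted p ran from 0.043 to 0.561. The dimmer probe, also well above background on all 8 female arrays, read -5.54, -5.83, -5.05 and -5.41 in MAT and -4.46, -4.06, -5.41 and -4.47 in AGED females. The dimmer probe placed the same 3 AGED arrays above all MAT arrays, with a difference of 0.86 (exact permutation p = 0.0857). In males the brighter probe read -3.19, -3.28, -3.53 and -2.90 in MAT and -3.32, -2.74, -2.79 and -2.60 in AGED mice, a change of 0.36 (95% interval -0.30 to 1.03, limma adjusted p = 0.583). The dimmer probe was well above background on 3 of 4 MAT male and 1 of 4 AGED male arrays. The age changes of the sexes differed by -0.69 for males minus females (95% interval -1.63 to 0.25, limma adjusted p = 0.66).

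Aqp4, the water channel of astrocytes that is also found in several epithelia and in muscle, was near the lower end of what the array measured. Its brighter probe read -3.47, -3.76, -3.71 and -3.45 in MAT females and -5.77, -3.86, -3.94 and -4.56 in AGED females, where -5.77, from replicate 1, was not well above background. All 4 AGED values were below all MAT values, on this scale the only such case among the 7 members in either sex, against 10.8% of all genes in females (5.78% lower in AGED) and 7.85% in males that did not overlap. The change was -0.93 (SE 0.38, 95% interval -1.76 to -0.11, unadjusted p = 0.0286, limma adjusted p = 0.411), and without AGED female replicate 1 it was -0.52 (adjusted p = 0.778). The other probe was well above background on 3 of 4 MAT and 1 of 4 AGED female arrays and gave -0.33 (exact permutation p = 0.543). In males the brighter probe read -3.87, -3.36, -4.20 and -3.48 in MAT and -4.75, -3.65, -3.20 and -4.06 in AGED mice, the -4.75 of AGED replicate 1 not well above background. The male change was -0.19 (95% interval -1.01 to 0.64, limma adjusted p = 0.84), and it was 0.09 without that array, 0.00 with normexp, 0.19 with array weights and 0.09 against neighbouring spots, where that array was set to the lowest signal well above background.

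**Figure D4:**
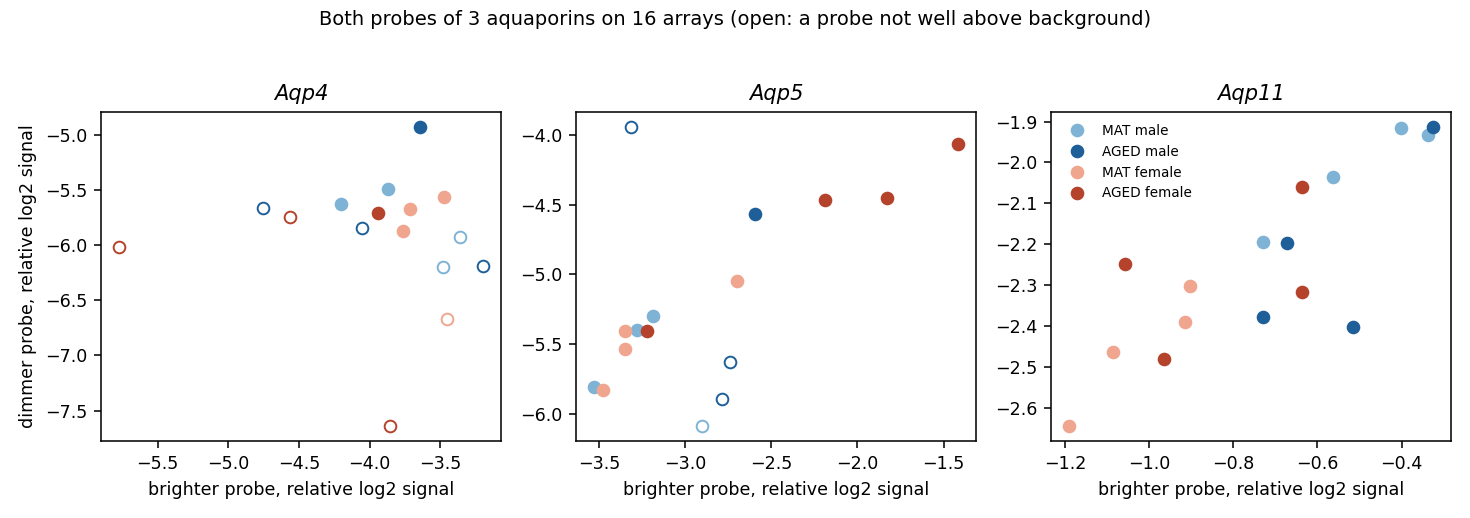
The dimmer against the brighter probe of Aqp4, Aqp5 and Aqp11 on the 16 arrays, both as log2 signal relative to the 75th percentile of the array, coloured by group and open where either probe was not well above background. For Aqp5 the AGED female arrays 1, 2 and 4 were high with both probes, at -4.47 to -4.06 on the dimmer one, while for Aqp4 most points are open.

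Aqp11 was at a middle level with both of its probes on all arrays. The brighter probe read -0.40, -0.73, -0.34 and -0.56 in MAT males and -0.51, -0.67, -0.33 and -0.73 in AGED males. The age groups of males overlapped over nearly their whole range, with a change of -0.05 (95% interval -0.35 to 0.25, limma adjusted p = 0.88). The sign of this value turned without detrending (0.22) and with normexp (0.24), and it was -0.15 against neighbouring spots. In females it read -1.09, -0.90, -1.19 and -0.92 in MAT and -0.64, -0.64, -0.97 and -1.06 in AGED mice, a change of 0.20 (95% interval -0.10 to 0.50, limma adjusted p = 0.672). The dimmer probe gave an age change of -0.20 in males and 0.17 in females (exact permutation p = 0.229 in each). With the brighter probe all 4 MAT males were above all 4 MAT females, at -0.73 to -0.34 against -1.19 to -0.90. The dimmer probe gave -2.20 to -1.92 against -2.65 to -2.30. In AGED mice the sexes overlapped, at -0.73 to -0.33 in males and -1.06 to -0.64 in females with the brighter probe. With the dimmer one they read -2.40 to -1.91 and -2.48 to -2.06. Of all genes, 14.3% were higher in all 4 MAT males than in all 4 MAT females. Each sex lay on its own slide, so sex and slide cannot be told apart here.

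Aqp9, the aquaglyceroporin best known from liver, was not well above background on 15 of 16 arrays. Its measured signal was -7.59 to -5.61 in all groups, and no change is given for it. For a probe this dim a low level of the RNA was not detectable.

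Slc14a1, the urea transporter UT-B, was well above background on all arrays. It read 2.94, 3.53, 3.40 and 2.99 in MAT males and 3.52, 2.64, 2.20 and 3.12 in AGED males. AGED replicates 2 and 3 were below all MAT values and the others within their range. The change in males was -0.34 (SE 0.23, 95% interval -0.85 to 0.16, limma adjusted p = 0.486). It was -0.56 without AGED male replicate 1 (adjusted p = 0.183) and -0.12 without AGED male replicate 3 (adjusted p = 0.791). The highest AGED value, that of replicate 1, carried a detrending factor of 1.79, while the other 3 of that group had 0.841 to 0.970. Without detrending the change was -0.49 (limma adjusted p = 0.0981), and against neighbouring spots -0.50 (exact permutation p = 0.143). In females Slc14a1 read 2.73, 2.90, 3.21 and 3.06 in MAT and 3.12, 3.24, 3.18 and 2.96 in AGED mice, a change of 0.15 (95% interval -0.35 to 0.65, limma adjusted p = 0.893). The age changes differed between the sexes by -0.49 (95% interval -1.20 to 0.22, limma adjusted p = 0.681). Of the red cell markers measured, 5 of 7, 0 passed in either sex, with mean levels of -1.42 to 0.20 on MAT male and -0.69 to 0.14 on AGED male arrays. Their part in the values of Slc14a1 was not tested.

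Slc14a2, the urea transporter UT-A, read -4.27, -4.33, -4.43 and -4.33 in MAT males, all well above background. It read -5.25, -5.18, -5.26 and -4.38 in AGED males, where only the -4.38 of replicate 4 was well above background and lay within the MAT range. The change was -0.68 (SE 0.18, 95% interval -1.06 to -0.29, unadjusted p = 0.00204, limma adjusted p = 0.0753), a value that rests on 3 AGED signals not well above background. With signals below the lowest one well above background set to it, the change was -0.60 (adjusted p = 0.0988), and with normexp -0.36 (adjusted p = 0.146). Without AGED male replicate 4 it was -0.89 (limma adjusted p = 0.00514), which is under a 2-fold change. This spot, in row 361 of 384, lay in the same region as that of Aqp3, and on AGED male arrays the median factor of its 182 neighbouring spots was 1.49 to 2.14. It was 0.912 to 0.967 on MAT male arrays. Against neighbouring spots the change was -0.48 with detrended signals. With no detrending it was 0.34 (exact permutation p = 0.171), but there the 3 AGED signals not well above background were set to the lowest one that was, so 0.34 is an upper limit and gives no direction. In females Slc14a2 read -4.74, -4.85, -4.98 and -4.46 in MAT and -4.77, -5.08, -4.74 and -4.92 in AGED mice, all well above background. The female change was -0.12 (95% interval -0.51 to 0.27, limma adjusted p = 0.885), and the change of the sexes differed by -0.56 (95% interval -1.10 to -0.01, unadjusted p = 0.0465, limma adjusted p = 0.497). The other probe of Slc14a2 was well above background on 0 of 16 arrays.

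The genes most like each member over the 16 arrays were sought among 15753 genes with a symbol that are no members, by Pearson's r, as a description. Points share an array and its scaling, and no p is given. For Aqp3 they were Tecpr1 (r = 0.88), Tfe3 (0.88) and Arpc5 (0.86), and r was 0.84, 0.84 and 0.85 after the group means were removed. For Aqp11 they were Dnase1l2 (0.86), Bhlhe41 (0.86) and Tef (0.86), the last 2 of them transcription factors of the circadian clock, with 0.73, 0.74 and 0.66 after the group means were removed. For Aqp5 they were Nip7 (0.87), Timm10 (0.86) and Tubb4b (0.84), with 0.78, 0.76 and 0.83 after that removal. For Aqp4 they were Syngr3 (0.93, Spearman's rho 0.69), Lpo (0.92) and Gm9258 (0.92), with 0.91, 0.94 and 0.92 after it. Those of Slc14a1 were Twistnb (0.91), Tacc1 (0.87) and Eme2 (0.86), with 0.91, 0.90 and 0.89 after it. Those of Slc14a2 were Mfsd6l (0.90), Exd2 (0.87) and Aox1 (0.86), with 0.80, 0.81 and 0.74 after it. For Aqp1 they were Cdc16 (0.94), Dagla (0.92) and Dnaaf4 (0.91), with 0.95, 0.87 and 0.91 after it. Without AGED male replicate 1 the r of these 3 genes with Aqp1 fell to 0.74, 0.71 and 0.60.

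Other genes of the pathway were read from lists. Of 6 other aquaporins 4 were measured, and 0 passed an adjusted p under 0.05 in limma in either sex. Aqp2, the channel of the collecting duct that vasopressin moves to the membrane, was well above background on 16 arrays, with -3.94 to -3.21 in MAT males, -3.89 to -2.41 in AGED males and -4.13 to -3.78 in females. Its change in males was 0.16 (limma adjusted p = 0.78), and that in females -0.04 (adjusted p = 0.979), and without detrending the male value was 0.38. Aqp7, the glycerol channel of fat cells, read -3.76 to -2.79 in MAT females and -4.27 to -3.83 in AGED females, with no overlap, and its change of -0.65 did not pass (limma adjusted p = 0.426). Of all genes, 5.78% were lower in all 4 AGED females than in all 4 MAT females. The mean of the 8 fat cell markers ran from 1.42 to 3.21 on MAT female and from 0.83 to 1.73 on AGED female arrays, and its part in the value of Aqp7 was not tested. In males Aqp7 gave -0.38 (limma adjusted p = 0.517), and -1.0 without detrending. Aqp6 and Aqp8 were mostly not well above background: Aqp6 was above it on 2 MAT male, 1 AGED male, 3 MAT female and 4 AGED female arrays, and Aqp8 on 2, 0, 3 and 1. Of these only the female change of Aqp6 is given, 0.86 (limma adjusted p = 0.725). Mip and Aqp12 were well above background on 0 arrays, as was Avpr2, the vasopressin receptor of the kidney.

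Genes of the response to high osmolality, 8 of 8 measured, gave 0 calls in either sex, with a median change of 0.27 in males and 0.03 in females. Akr1b3, the aldose reductase that makes sorbitol, gave -0.33 in males (limma adjusted p = 0.299), and the taurine carrier Slc6a6 by 0.36 (adjusted p = 0.419). Slc38a2, an amino acid carrier of the same response, gave 0.24 in males (limma adjusted p = 0.595). Genes of sodium transport and its hormones, 8 of 10 measured, also gave 0 calls, with medians of 0.10 and -0.02. Among them were Atp1b1, a subunit of the sodium pump (0.91 in males, limma adjusted p = 0.146), and the cotransporter Slc12a2 (-0.02, adjusted p = 0.987).

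Of genes for making urea and handling ammonia, 8 of 12 were measured and 1 rose in males. This was Arg1, arginase of liver and of some macrophages, which splits arginine into ornithine and urea. It read -3.28, -5.31, -1.73 and -3.35 in AGED males, all well above background, and was not well above background on any MAT male array. AGED males were at least 5.60-fold higher, the bound with each dim array set to the lowest signal well above background. The fitted change, on the measured signals, was 3.47 (limma adjusted p = 0.032), and no p is given for the bound. Arg1 met the filter of 4 arrays only through the AGED males, the group where it was high. Its entry into the test thus depended on that level, so the adjusted p is no independent support for the rise. In females Arg1 was well above background on 1 of 4 arrays in each age group with a fitted difference of 1.07 (limma adjusted p = 0.672). Marco, a receptor of macrophages, was 21.9-fold higher in AGED males (log2 4.46, adjusted p = 0.00388), the only 1 of 8 macrophage markers measured that passed. The mean of these markers lay between 1.14 and 1.31 on MAT male arrays and between 1.63 and 3.14 on AGED male arrays. In females this mean lay between 0.97 and 1.24 on MAT and between 1.39 and 2.11 on AGED arrays. There 7 of the 8 markers were higher in AGED mice and 1 lower, and 0 passed. The age groups of females did not overlap for 4 of them, against 10.8% of all genes. Marco read -5.12 to -4.94 in MAT and -4.38 to -3.84 in AGED females. The part of macrophages in the level of Arg1 was not tested. Glud1, Glul and Ass1, the genes of the list with the highest mean signal, gave -0.05, -0.34 and 0.13 in males and did not pass (limma adjusted p = 0.908, 0.405 and 0.835).

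Of genes handling glycerol, 6 of 6 measured, 1 rose in males. Gk, the kinase that traps glycerol in cells after a channel lets it in, read -3.05 to -2.76 in MAT males and -2.53 to -2.24 in AGED males, a change of 0.55 or 1.46-fold (SE 0.11, limma adjusted p = 0.02). Without detrending it was 0.71. The female change of Gk was 0.10 (limma adjusted p = 0.805). Mgll, a lipase that frees glycerol, gave -0.97 in males (limma adjusted p = 0.112), Pnpla2 0.23 (adjusted p = 0.589), and Gpd1, an enzyme of glycerol phosphate, -1.04 (adjusted p = 0.494). In females Gpd1 read 3.84, 0.98, 1.05 and 0.50 in MAT and -1.01 to 0.18 in AGED mice, with no overlap. Of all genes, 5.78% were lower in AGED females without overlap. The female change of Gpd1 was -2.11 (limma adjusted p = 0.322). No gene of these 5 lists passed in females, where the same fit passed 0.228% of all genes at an adjusted p under 0.05, and 1.75% in males, 0.687% of all genes being higher in AGED males.

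**Figure D5:**
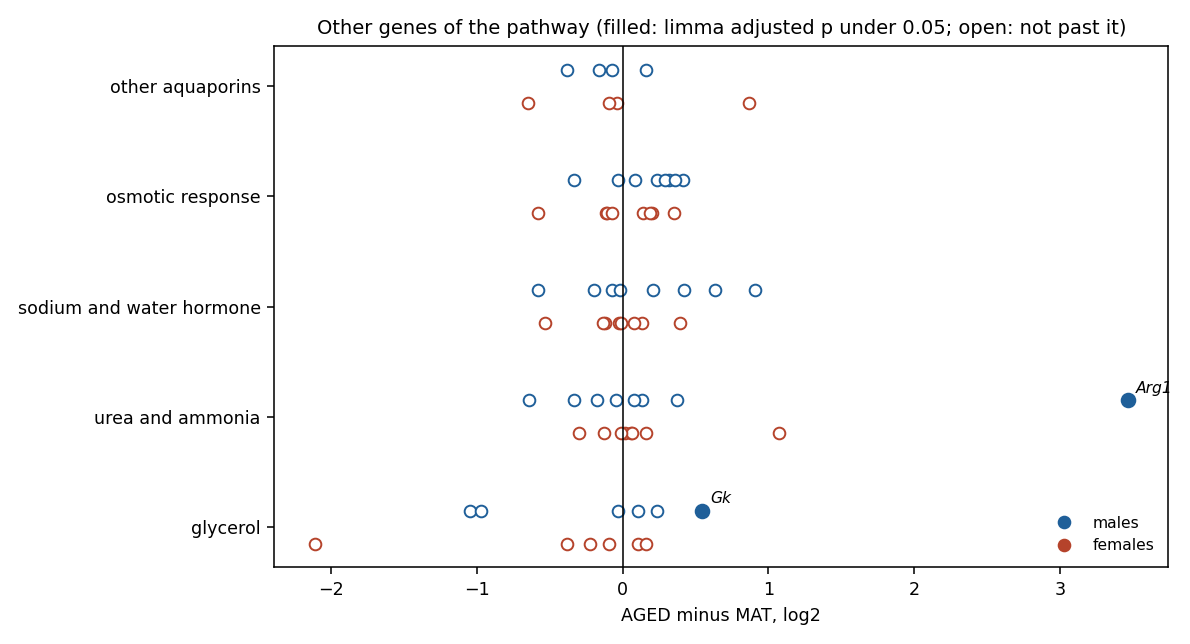
Differences between AGED and MAT means (log2, limma) for every tested gene of 5 lists, males in blue and females in red, filled where the adjusted p was under 0.05. Arg1 at 3.47 (fitted, with MAT males not well above background) and Gk at 0.55, both in males, are the 2 filled points.

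The labelled tissue matched its markers. All 14 urothelial and all 8 smooth muscle markers were measured, with 0 calls in either sex, and the brightest, Upk1a and Cnn1, gave -0.08 and 0.04 in males (limma adjusted p = 0.824 and 0.941) and 0.12 and 0.18 in females (adjusted p = 0.836 and 0.826). Of 10 neutrophil markers 6 were measured, and 3 of these rose in males: S100a8 (5.40-fold, limma adjusted p = 0.0212), S100a9 (8.48-fold, adjusted p = 0.0125) and Camp (1.71-fold, adjusted p = 0.0388). The other 3 did not pass in males, with -0.04 for Csf3r, -0.01 for Cxcr2 and 0.02 for Mmp9 (limma adjusted p = 0.893, 0.994 and 0.986). In females 0 of the 6 passed, with 4 higher and 2 lower in AGED mice. The age groups of females did not overlap for 3 of them, against 10.8% of all genes. S100a8 and S100a9 were among these, both higher in AGED females. No member of the lists for endothelium, red cells, lymphocytes, skeletal muscle, nerve or fat passed in either sex, and of 6 genes of the male accessory glands none was measured. Beside all these counts, 1.75% of all genes passed in males (0.687% higher in AGED) and 0.228% in females, so a count of 0 is little guide for lists this short. Y-linked Ddx3y was well above background on all male and on no female arrays. Xist was well above it on all female arrays, on 1 of 4 MAT male and on 0 of 4 AGED male arrays. Its level was -7.06 ± 1.35 (SD, n = 4) in MAT males and 1.92 ± 0.05 in MAT females.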

How the data were processed

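Gene expression was measured in the bladder body of 16 mice, 4 in each group of age and sex, with 1 array per mouse. Groups, ages and replicate numbers were taken from the labels.

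Arrays were scanned and extracted by the authors with Feature Extraction (10.7.3.1 per the file headers, 9.1 per the labels). The authors deposited for each spot a processed signal intensity, background-subtracted and spatially detrended within the array, beside the background-subtracted signal before detrending, the raw intensities and flags. A table of log2 values that the authors deposited served as an alternative. Its values equal the scaled log2 signals less a median per probe (r over 0.99 on each array), and its column medians lay between -0.13 and 0.29. The design of the array was annotated on an earlier genome build than the reference, which was used for names and start regions alone.

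From these, log2 of the processed signal less the 75th percentile of the array was computed. Control spots and 399 probe values with an outlier flag were left out, and replicate spots were averaged. No spot was saturated. Of 55681 probes, the 36972 that were well above background on 4 or more arrays were used, 20982 of them named through the reference. Where a gene had several, the brightest on average stood for it.

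A limma model (version 3.58.1, R 4.3.3) held the 4 group means, with 12 residual degrees of freedom, with Benjamini-Hochberg adjustment over 26781 genes. For a call, the adjusted p had to be under 0.05 and the change 2-fold or more, with no fold limit for the difference of the age changes and for the lists. Single probes were tested with two-sided exact permutation tests over 4 against 4 arrays, whose smallest p is 0.0286. Whether the mice were littermates is not given in the sources used here. Each mouse had its own array, so the spread behind the p-values holds differences between mice and between arrays, which cannot be told apart. Depth has no counterpart on arrays and their number sets the precision.

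The members and lists were chosen with earlier results of these data known. The named genes are all members, list genes at an adjusted p under 0.05, the 3 genes of highest mean in a pathway list (of the marker lists, the first of urothelium and smooth muscle), the 3 genes most like each member and all other aquaporins measured. For 1 gene of the pathway lists no values are reported here. The lists are other aquaporins, osmotic response, sodium and water hormones, urea and ammonia, glycerol, and markers of urothelium, smooth muscle, endothelium, red cells, neutrophils, macrophages, lymphocytes, skeletal muscle, nerve, fat cells, male accessory glands and sex-linked genes. The procedure was run on simulated arrays with known changes and normal noise of 1 SD per gene in all groups. These held no spatial factors and no dim array, so they could not test the calls made here. Replicate numbers did not pair the arrays, with correlations of the deviations from the group means of -0.15 to 0.07 between arrays of the same number. Alternatives were other scalings, filters and treatments of several probes, the authors' table, normexp (offset 50), the methods' t-test, array weights, each sex alone, the replicate block and leaving out each array. The scaling without spatial detrending, and that relative to neighbouring spots within 10 rows and columns, were added after seeing the data. The RT-PCR and pathway software were not used here.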

Additional observations from a re-analysis of the deposited data

Results flagged for a closer look

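Within a group of 4 arrays, a value was looked at again where its gap to the nearest other array, divided by the range of the group, exceeded the 95% critical value of Dixon's test, which chance passes in about 1 of 20 groups. Among 40 groups of member probes 3 did so (7.5%), among 60 groups of list means 4, and among 4 groups of the scale of an array 1.

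Slc14a2 on AGED male replicate 4 had a ratio of 0.901, at -4.38 against -5.26 to -5.18 on the other arrays of its group. Aqp5 (brighter probe) on MAT female replicate 3 had a ratio of 0.831, at -2.70 against -3.48 to -3.35. The dimmer probe of Aqp4 on AGED female replicate 2 had a ratio of 0.843, at -7.64 against -6.01 to -5.71. The mean of the other aquaporins on AGED male replicate 4 had a ratio of 0.872, at -3.95 against -5.05 to -4.91, and on that array Aqp2 read -2.41 and Aqp6 -2.99. The macrophage mean on AGED male replicate 1 had a ratio of 0.855, at 3.14 against 1.63 to 1.85, and the 75th percentile of the log2 signal on the same array a ratio of 0.873, at 9.39 against 10.13 to 10.24. The mean of the glycerol genes on MAT female replicate 1 had a ratio of 0.905, at 1.19 against 0.27 to 0.35, and the smooth muscle mean on MAT male replicate 3 a ratio of 0.831, at 6.78 against 6.84 to 6.86.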

How the results depend on the processing

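The count of members called was 0 in males, in females and for the difference of the age changes, and stayed 0 under all alternatives run but for females, where it was 1 (Aqp5, 1.05) by the methods' t-test with no adjustment, and ranged from 0 to 1 over the omissions of 1 array (Aqp5, 1.41 without AGED female replicate 3). Values of single members under alternatives and omissions numbered 462, but many of these could not turn their sign. Leaving out an array of the other sex, or changing the test alone, keeps the same difference of means. The count that kept its direction is therefore no measure of robustness. Of the 462, 447 kept their direction and side of the threshold, 2 passed it (both Aqp5 in females) and 13 turned their sign. In males these were Aqp3 with normexp (-0.85) and without detrending (-0.84). They were also Aqp4 with normexp (0.0033), array weights (0.19), against neighbouring spots (0.087) and without AGED male replicate 1 (range over omissions -0.42 to 0.094). Aqp11 turned with normexp (0.24), without detrending (0.22) and without AGED male replicate 4 or MAT male replicate 3 (range -0.13 to 0.0033), and Slc14a2 against neighbouring spots (0.34, an upper limit set by the floor on 3 AGED signals). In females Aqp1 turned without AGED female replicate 3 (range -0.18 to 0.046) and against neighbouring spots (0.020). Normexp and the scale without detrending both start from signals before the detrending, which by construction leaves its factors out; other causes were not tested. Without detrending 209 genes were called higher and 1007 lower in AGED males, with normexp 64 and 695, against 74 and 153 with the processed signal. With the replicate block, Slc14a2 in males had an adjusted p of 0.0824 and Aqp5 in females of 0.335, and no call changed. The slide could not be fitted as a block, since each sex had its own slide. The main model shares 1 estimate of the spread among the 4 groups. With each sex fitted alone, the calls of the members stayed at 0. Those over all genes then went from 227 to 14 in males and from 50 to 94 in females. By the t-test with adjustment, 0 genes were called in males and 1 in females. Whether the male calls of the list genes hold in these fits was not tested. The brightness of Aqp9, Aqp4 and Slc14a2 over background limited what could be measured of them.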
